A study of Homo sapiens with 8 samples.

Results

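The genes described here encode the folding machinery of the endoplasmic reticulum (ER) and the signalling proteins of the unfolded protein response (UPR). They were taken from a fixed list of 39 symbols, matched to the symbol column of the deposited gene table, and kept where at least 4 of 8 libraries held a value of at least 10. All 39 genes passed, out of 63677 genes in the table and 19559 that passed the same filter. HYOU1 and MANF each had an additional row with 0 reads in all libraries, which was dropped. Poly(A) RNA came from LY2 cells, an endocrine-resistant breast cancer line derived from MCF-7, with a stably expressed short hairpin RNA under puromycin selection (500 ng/mL). The control group carried a non-targeting hairpin (shNT, n = 4 libraries) and the other a hairpin against SRC-1 (shSRC1, n = 4). SRC-1 is the nuclear receptor coactivator encoded by NCOA1. Both groups were grown with 1e-08 M 4-hydroxytamoxifen in charcoal-stripped serum, deprived of steroids for 72 h and given 1e-07 M 4-hydroxytamoxifen for 8 h. No group without tamoxifen or with an ER stress inducer was analysed here. The labels do not say whether a hairpin line was 1 clone or a pool, nor that replicates were separate cultures, so each p-value reflects library-to-library spread alone, and that spread may be technical.

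Proteins that enter the secretory pathway fold in the ER with the help of chaperones, lectins and disulfide isomerases, and misfolded chains are sent back to the cytosol for degradation. When unfolded chains accumulate, the sensors ATF6, IRE1 (ERN1) and PERK (EIF2AK3) signal to the nucleus. ATF6 is cut in the Golgi to release a transcription factor, IRE1 splices the XBP1 transcript into its active form, and PERK slows translation. Breast epithelium is a secretory tissue, and XBP1 and the isomerase-like protein AGR2 are both known as genes linked to estrogen receptor activity in luminal tumours.

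The ER stress response element (ERSE) is the promoter sequence bound by NF-Y together with ATF6 or XBP1. The genes were listed as ER folding and UPR genes, so their share of matches is not independent of that choice. RefSeq promoter windows on GRCh38.p14, from 250 bases before to 50 bases after an annotated start, were matched for 34 of the 39 genes. No window was matched for PDIA3, DERL1, DERL3, SEC24D and KDELR2. The ERSE was searched on both strands as CCAAT, any 9 bases and CCACG, and was found in 8 of the 34 genes, against 25 of 27305 genes (0.0916%) with a window in the whole table. The related ERSE-II, searched as ATTGG, any 1 base and CCACG, was found in 3 further genes, against 19 genes (0.0696%). The XBP1 and ATF6 site called UPRE, searched as TGACGTGG, was found in 3 genes, against 253 genes (0.927%). In HYOU1 the UPRE overlapped an ERSE-II match. The estrogen response element, searched as GGTCA, any 3 bases and TGACC, matched none of the 34 genes, against 20 genes in the table. These are matches of letters in a window, not measured binding. The stretches below show matches for the genes whose values are compared later, with the fixed bases of each match in capitals and the sequence given on the strand of the gene. A match on the opposite strand appears as its reverse complement: CGTGG before ATTGG for the ERSE, CGTGG before CCAAT for the ERSE-II, and CCACGTCA for the UPRE.

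HSPA5 (chr9:125241371-125241429, minus strand): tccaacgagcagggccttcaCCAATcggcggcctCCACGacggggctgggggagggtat
XBP1 (chr22:28800598-28800626, minus strand): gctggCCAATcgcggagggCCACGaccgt
HSP90B1 (chr12:103930211-103930239, plus strand): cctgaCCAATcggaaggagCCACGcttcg
HSP90B1 (chr12:103930316-103930344, plus strand): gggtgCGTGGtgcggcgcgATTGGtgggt
CALR (chr19:12938364-12938422, plus strand): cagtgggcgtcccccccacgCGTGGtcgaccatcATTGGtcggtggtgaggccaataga
CRELD2 (chr22:49918534-49918592, plus strand): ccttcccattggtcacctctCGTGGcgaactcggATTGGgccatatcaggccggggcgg
SDF2L1 (chr22:21642094-21642144, plus strand): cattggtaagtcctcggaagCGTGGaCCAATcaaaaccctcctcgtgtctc
HERPUD1 (chr16:56932020-56932040, plus strand): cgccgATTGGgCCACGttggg
KDELR3 (chr22:38468045-38468062, plus strand): cctggCCACGTCAccgcc

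HSPA5, XBP1, HSP90B1, CALR and CRELD2 carry the ERSE, with 2 copies in HSP90B1, and SDF2L1 and HERPUD1 carry the ERSE-II. The KDELR3 stretch holds the UPRE on the opposite strand. CANX, PDIA6 and ERO1LB also held an ERSE, HYOU1 held 2 ERSE-II matches, and TXNDC5 held a UPRE. The ERSE of HSPA5 begins at position -66 and that of XBP1 at -52, with the annotated start counted as 0.

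The targeted gene was read first. NCOA1 (ENSG00000084676) held 4381, 4212, 4467 and 4525 normalized reads in shNT replicates 1 to 4 and 1927, 1895, 2215 and 2107 in shSRC1 replicates 1 to 4. These values are reads per gene divided by a size factor of the library. The groups did not overlap, and the log2 fold change was -1.11 (SE 0.08, limma adjusted p = 2.25e-07; exact two-sided permutation p = 0.0286, the minimum for 4 against 4). These are RNA values, and SRC-1 protein was not measured here. Effects of the hairpin or the line cannot be told apart from those of lower NCOA1. Recovered depth ran from 58459196 to 67022036 reads in shNT and from 33771775 to 66248960 in shSRC1, where replicate 2 was the shallowest. Of 8 luminal epithelial markers, KRT8, KRT18 and KRT19 rose by 0.68, 0.47 and 0.68 on the log2 scale and none fell. EPCAM, ESR1 and FOXA1 had log2 fold changes of -0.16, -0.13 and -0.07, and CDH1 and GATA3 0.11 and 0.19, none of them called. The summed level of all 8, to which the keratins contribute most, was 340043 to 416533 normalized reads in shNT and 513845 to 583254 in shSRC1. Their part in the results below was not tested. Of 6 fibroblast, 6 leukocyte and 4 endothelial markers, 1, 4 and 3 were too low to be tested, and none of the rest was called. CD3E and PECAM1 stood at or under 0.916 normalized reads in every library. Other markers were read: COL1A1 held 1351 to 2039 normalized reads and VWF 193 to 281 over the libraries. KDR, not tested, held 2.67 to 5.57 in shNT and 6.65 to 29.7 in shSRC1.

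Of the 39 genes, 6 rose and 1 fell in shSRC1 against shNT, and 32 did not pass an adjusted p of 0.05 in limma. Among all tested genes 23.2% passed in either direction, 12% higher and 11.2% lower, while 17.9% of the ER genes did, so the calls were no larger a share here than in the background. The genes that rose were AGR3, AGR2, XBP1, KDELR3, ATF6 and HSPA5, and DNAJC3 fell. Most ER folding genes moved little: the absolute log2 fold change was under 0.2 in 24 of the 39 and over 0.5 in 3 (AGR3, AGR2 and XBP1). The median log2 fold change of the 39 was 0.06, against -0.0025 over all tested genes, and the median absolute change was 0.11 against 0.24. The background reaches lower values: a minimum of 50 kept 38 of the 39 genes but 15236 of all 19559. At that minimum 7 of the 38 were called, against 28.2% of all genes kept. AGR3, 1 of the 7, reached 50 only in shSRC1 libraries, so that filter kept it through its difference between the groups. For 28 of the 32 genes that were not called, the 95% confidence interval lay within 0.5 of 0 in both directions. The exceptions were HSP90B1, SDF2L1, SEC61B and the sparsely read DERL3. Groups did not overlap in 12 of the 39 genes, 10 higher and 2 lower, against 29% of all tested genes, 16.9% higher and 12.1% lower. All fold changes here are on the log2(value + 1) scale, which understates changes of genes with low values. The edgeR quasi-likelihood test on recovered reads called the same 7 genes. Exons of 23 of the 39 genes overlap those of another gene in GENCODE, mostly on the opposite strand, and reads of such pairs cannot be told apart.

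**Figure D1:**
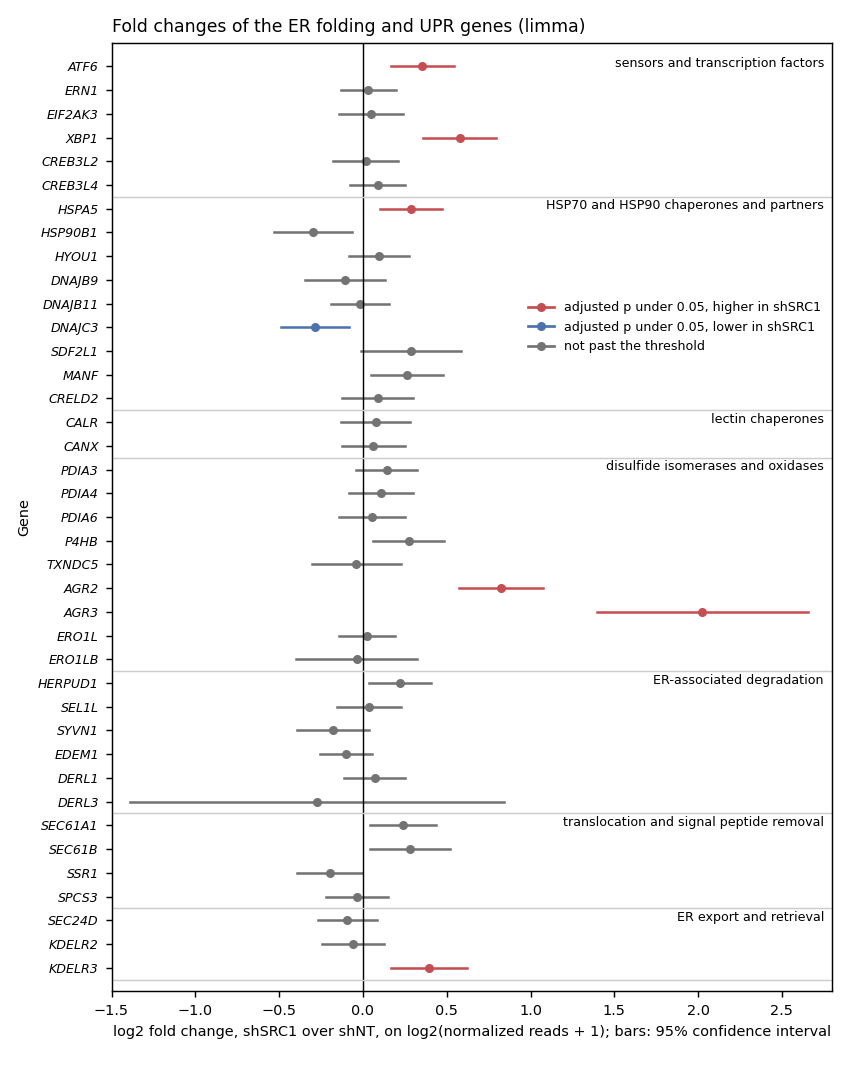
Log2 fold change of each ER folding and UPR gene in shSRC1 over shNT (points) with its 95% confidence interval from limma (bars), grouped by role (4 libraries per group). AGR3, AGR2 and XBP1 lie farthest to the right at 2.02, 0.82 and 0.58, DNAJC3 is the called gene on the left at -0.29, and the intervals of most other genes span 0.

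Among the sensors and transcription factors, 2 of 6 rose and none fell. XBP1 (ENSG00000100219, chromosome 22) encodes the transcription factor that drives chaperone and ER-associated degradation genes once IRE1 has spliced its transcript. It held 49233, 53820, 39796 and 49914 normalized reads in shNT replicates 1 to 4 and 67002, 72088, 70101 and 76865 in shSRC1 replicates 1 to 4. Every shSRC1 library lay above every shNT library, with the lowest value in shNT replicate 3. XBP1 rose by 0.58 on the log2 scale (SE 0.10, 95% confidence interval 0.36 to 0.79, limma adjusted p = 0.00127). Gene-level values do not separate spliced from unspliced XBP1 transcripts, so IRE1 activity was not measured.

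ATF6 (ENSG00000118217, chromosome 1), the membrane-bound sensor that becomes a transcription factor, held 3254, 3479, 2863 and 3524 normalized reads in shNT and 3827, 4223, 4217 and 4476 in shSRC1, in replicate order. The groups did not overlap. ATF6 rose by 0.35 (SE 0.09, 95% confidence interval 0.17 to 0.54, limma adjusted p = 0.0102). Its 20 neighbours were the 10 tested protein-coding genes on each side in order along the chromosome. Their median log2 fold change was 0.32, close to that of ATF6 itself. For XBP1 that median was 0.13.

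The kinase sensors stayed within the spread of their libraries. ERN1 (ENSG00000178607), which encodes IRE1, held 1526, 1511, 1554 and 1577 normalized reads in shNT and 1674, 1562, 1476 and 1604 in shSRC1. Its log2 fold change was 0.03 (95% confidence interval -0.13 to 0.20, limma adjusted p = 0.787), with the highest and the lowest of the 8 values both in shSRC1. EIF2AK3 (ENSG00000172071), which encodes PERK, held 2273, 2374, 2089 and 2452 in shNT and 2139, 2234, 2523 and 2625 in shSRC1, which is a change of 0.05 on the log2 scale (95% confidence interval -0.14 to 0.24, limma adjusted p = 0.719). CREB3L2 and CREB3L4, ER-anchored factors of the same structural class as ATF6, had log2 fold changes of 0.02 and 0.09 (limma adjusted p = 0.903 and 0.427).

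Of the 9 HSP70 and HSP90 chaperones and their partners, 1 rose, 1 fell and 7 did not pass. HSPA5 (ENSG00000044574, chromosome 9) encodes BiP, the ER HSP70 that binds unfolded chains and holds the sensors inactive. It held 23264, 23447, 19303 and 22472 normalized reads in shNT and 26240, 25960, 26955 and 28484 in shSRC1. The shSRC1 values all lay above the highest shNT value. HSPA5 rose by 0.29 (SE 0.09, 95% confidence interval 0.10 to 0.47, limma adjusted p = 0.0293). The call sat near the threshold: leaving out shNT replicate 4 or shSRC1 replicates 2, 3 or 4 gave limma adjusted p-values of 0.0576, 0.0571, 0.0702 and 0.0801, with log2 fold changes of 0.30, 0.30, 0.28 and 0.26. Over its 20 alternative settings the adjusted p ran from 0.00372 to 0.0801.

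DNAJC3 (ENSG00000102580, chromosome 13), also called P58IPK, is a BiP cochaperone and an inhibitor of PERK. It held 2457, 2604, 2720 and 2872 normalized reads in shNT and 2036, 1900, 2425 and 2396 in shSRC1. The groups did not overlap, though shSRC1 replicates 3 and 4 lay close to the lowest shNT library. DNAJC3 fell by 0.29 (SE 0.09, 95% confidence interval -0.49 to -0.09, limma adjusted p = 0.0404). The call was lost without shNT replicates 2, 3 or 4 (limma adjusted p = 0.0535, 0.0506 and 0.108) and without shSRC1 replicates 1 or 2 (0.101 and 0.133). After a correction of every library for GC content and transcript length, the log2 fold change was -0.18 (adjusted p = 0.0565), and over all 20 alternatives the adjusted p ran from 0.00784 to 0.133. Its 20 neighbours, taken in the same way, had a median of -0.20.

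HSP90B1, which encodes the ER HSP90 known as GRP94, was not called. It held 25296, 26280, 28236 and 29495 normalized reads in shNT and 18786, 20055, 24653 and 26100 in shSRC1, so shSRC1 replicate 4 overlapped the shNT range. The log2 fold change was -0.30 (95% confidence interval -0.53 to -0.07, limma adjusted p = 0.0603), it passed in 6 of 20 alternatives (adjusted p from 0.011 to 0.167), and its 20 neighbours had a median of -0.29. In shSRC1, replicates 1 and 2 were the low libraries for both HSP90B1 and DNAJC3. Those 2 libraries were also the shSRC1 libraries in which values rose with GC content: Spearman's rho across 18787 genes, which are not independent replicates, was 0.48 and 0.19, against -0.10 and -0.22 in replicates 3 and 4. In shNT, replicate 1 was the lowest library for both genes and had a rho of 0.18. In shNT replicates 2, 3 and 4 rho was -0.09, -0.22 and -0.21. The part of this in either value was not tested beyond the correction for GC content and transcript length. That correction, given above for DNAJC3, gave HSP90B1 a log2 fold change of -0.24 with a limma adjusted p of 0.0341.

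The other chaperone partners did not pass. SDF2L1 and MANF, small ER proteins that are induced by unfolded protein stress, had log2 fold changes of 0.29 and 0.26 (limma adjusted p = 0.149 and 0.0722). Without shNT replicate 3 these were 0.12 and 0.16. HYOU1, the nucleotide exchange factor of BiP, CRELD2 and the J-domain proteins DNAJB11 and DNAJB9 had 0.09, 0.09, -0.02 and -0.11. The lectin chaperones calreticulin (CALR) and calnexin (CANX), which hold glycoproteins during folding, had 0.08 and 0.06 (limma adjusted p = 0.588 and 0.633). The 95% confidence interval of CALR ran from -0.13 to 0.28 and that of CANX from -0.13 to 0.25.

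**Figure D2:**
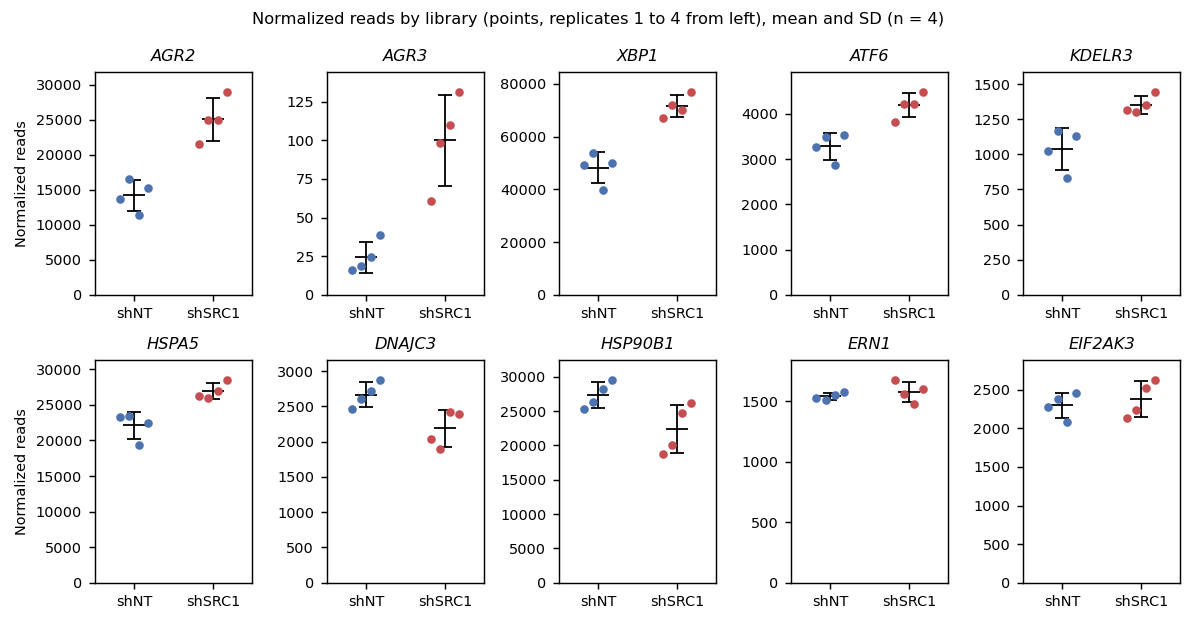
Normalized reads in each library (points, replicates 1 to 4 from the left in each group) with mean and SD (bars, n = 4) for the 7 called genes, HSP90B1, ERN1 and EIF2AK3. Groups are separate in AGR2, AGR3, XBP1, ATF6, KDELR3, HSPA5 and DNAJC3 and overlap in HSP90B1, ERN1 and EIF2AK3.

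Of 9 disulfide isomerases and oxidases, 2 rose and none fell, and both were anterior gradient proteins. AGR2 and AGR3 are adjacent genes on chromosome 7 that encode small isomerase-like proteins of secretory epithelia. AGR2 (ENSG00000106541) held 13718, 16583, 11380 and 15236 normalized reads in shNT and 21491, 24922, 25003 and 28961 in shSRC1. Every shSRC1 library stood well above the shNT range. AGR2 rose by 0.82 (SE 0.12, 95% confidence interval 0.57 to 1.08, limma adjusted p = 0.000245).

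AGR3 (ENSG00000173467) held 15.8, 18.7, 24.1 and 38.6 normalized reads in shNT and 60.8, 98.0, 110.0 and 131.0 in shSRC1. It changed from a trace to a low level, with shSRC1 replicate 1 the lowest of its group and shNT replicate 4 the highest of the controls. AGR3 rose by 2.02 (SE 0.30, 95% confidence interval 1.39 to 2.65, limma adjusted p = 0.000279). Per kilobase of the longest annotated transcript, AGR2 stood at 8003 ± 1255 normalized reads in shNT and 14114 ± 1717 in shSRC1, and AGR3 at 32.4 ± 13.5 and 133 ± 39.4 (SD over 4 libraries). The 20 tested protein-coding neighbours of each, a set that includes the other gene of the pair, had a median of 0.15. No ERSE, ERSE-II, UPRE or estrogen response element was matched in the AGR2 or AGR3 window. Both calls held in all 20 alternatives (adjusted p from 3.58e-10 to 0.0017 for AGR2 and from 1.24e-08 to 0.00236 for AGR3).

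The classical isomerases did not pass. P4HB, the founding member of the family, had 34721, 35171, 27011 and 33316 normalized reads in shNT and 43149, 38299, 37811 and 37566 in shSRC1. Its groups did not overlap, but the log2 fold change of 0.27 missed the threshold (95% confidence interval 0.06 to 0.49, limma adjusted p = 0.0591) and passed in 7 of 20 alternatives (adjusted p from 0.0238 to 0.144). PDIA3, PDIA4 and PDIA6 had log2 fold changes of 0.14, 0.11 and 0.06. The oxidases ERO1L and ERO1LB, which pass oxidising power to the isomerases, had 0.02 and -0.04. TXNDC5 had -0.04, and shares exons with the readthrough gene BLOC1S5-TXNDC5, so its value is uncertain.

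None of the 6 genes of ER-associated degradation passed. HERPUD1, a stress-induced scaffold of the degradation complex, had a log2 fold change of 0.22 (limma adjusted p = 0.0755) with groups that did not overlap. SEL1L and SYVN1, the core adaptor and ubiquitin ligase of that complex, had 0.04 and -0.18. EDEM1, which marks misfolded glycoproteins, had -0.10 with groups that did not overlap (limma adjusted p = 0.328). The channel protein genes DERL1 and DERL3 had 0.07 and -0.27. DERL3 held between 3.67 and 22.3 normalized reads per library and a 95% confidence interval of -1.39 to 0.84, so a sizeable difference was not detectable at this depth.

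No gene of protein translocation and signal peptide removal passed. SEC61A1 and SEC61B, subunits of the translocation channel, had log2 fold changes of 0.24 and 0.28 (limma adjusted p = 0.075 and 0.084). The groups of SEC61A1 did not overlap, and it passed in 4 of 20 alternatives (adjusted p from 0.0279 to 0.168). SEC61B passed in 2 of them. Without shNT replicate 3 the value of SEC61B was 0.15. SSR1, a channel-associated protein, had -0.20 and SPCS3, a signal peptidase subunit, -0.04. Of the 3 genes of ER export and retrieval, 1 rose. KDELR3 (ENSG00000100196, chromosome 22), a receptor that returns escaped ER chaperones from the Golgi, held 1025, 1165, 830 and 1128 normalized reads in shNT and 1317, 1298, 1351 and 1442 in shSRC1. The groups did not overlap, and the lowest library was again shNT replicate 3. KDELR3, whose exons overlap those of DDX17 on the opposite strand, rose by 0.39 (SE 0.11, 95% confidence interval 0.17 to 0.62, limma adjusted p = 0.0155), while its 20 neighbours had a median of -0.06. KDELR2, a receptor of the same family that was far more abundant per length (7062 ± 626 against 600.1 ± 86.8 normalized reads per kilobase in shNT, SD, n = 4), had a log2 fold change of -0.06 (limma adjusted p = 0.643). The coat subunit SEC24D had -0.09.

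**Figure D3:**
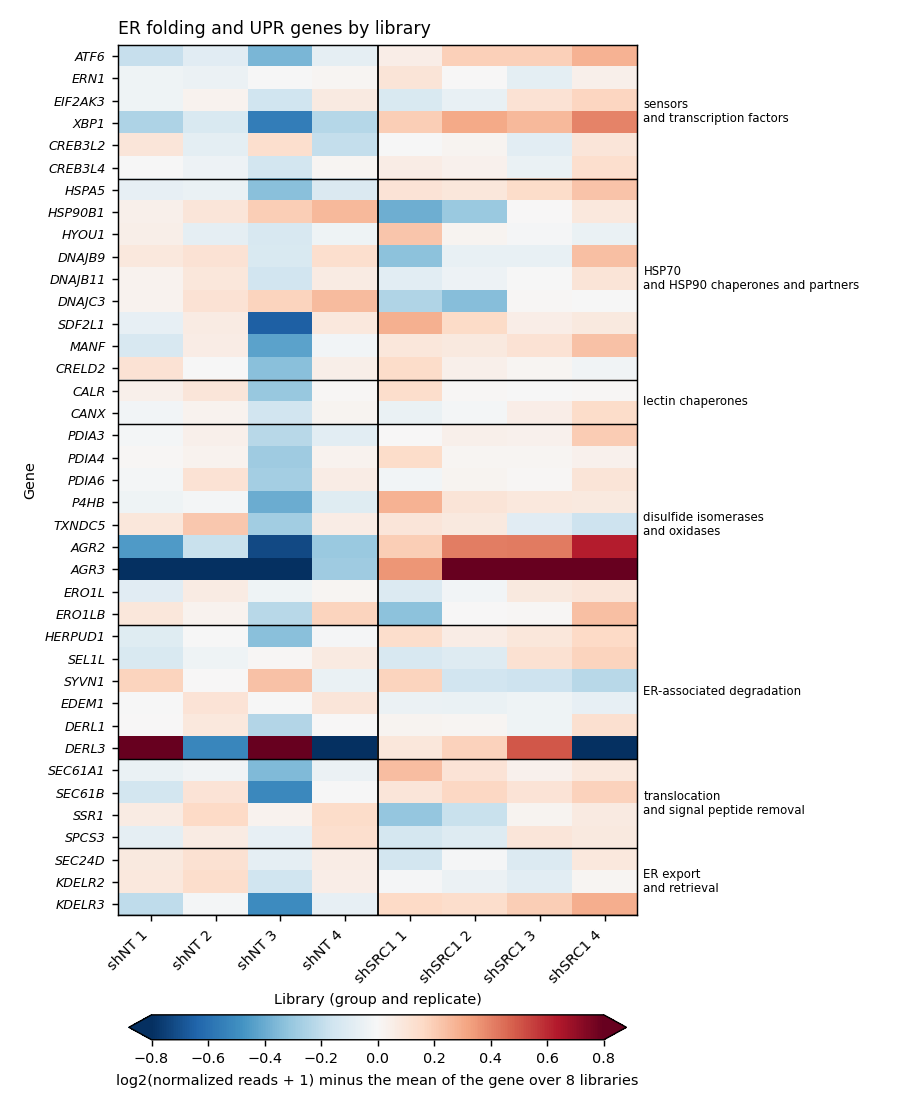
Deviation of each gene in each library from its mean over 8 libraries, on log2(normalized reads + 1), with libraries in columns and genes in rows by role. The colour range ends at 0.8, which AGR3 and DERL3 exceed. The column of shNT replicate 3 is blue for most genes, and AGR2, AGR3 and XBP1 are blue in every shNT library and red in every shSRC1 library. ATF6, HSPA5, KDELR3, P4HB, SEC61A1 and HERPUD1 also lie below their mean in every shNT library and above it in every shSRC1 library.

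The library of shNT replicate 3 stood apart over all genes as well as over these. The chi-square of its reads per gene against the other shNT libraries was 43.7 to 90.0, against 7.72 to 26.7 among those 3, and its mitochondrial share of 7.88% was the highest of the 8 libraries. The part of these in the results was not tested. Replicate 3 was the lowest shNT library in 28 of the 39 genes, against 42.6% of all tested genes. The median deviation of the 39 genes from their own means was -0.22 in that library, against -0.013 to 0.027 in the other shNT libraries and 0.019 to 0.097 in the shSRC1 libraries. For all tested genes the medians lay between -0.026 and 0.017. Without shNT replicate 3 the median log2 fold change of the 39 fell from 0.06 to 0.023, and 6 genes rose and none fell, the loss being DNAJC3. Without both that library and the shallow shSRC1 replicate 2, again 6 rose and none fell, with log2 fold changes of 0.72 for AGR2, 2.04 for AGR3, 0.48 for XBP1, 0.31 for KDELR3, 0.29 for ATF6 and 0.24 for HSPA5. Over the 20 alternatives the median of the 39 ran from 0.023, without shNT replicate 3, to 0.10, with the length and GC correction. Without shNT replicate 2 it was 0.086, and 9 of the 39 rose.

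Levels can be ordered between genes per length. XBP1 was the highest of the 39, at 22177 ± 2738 normalized reads per kilobase of its longest transcript in shNT and 32910 ± 1903 in shSRC1 (SD, n = 4 libraries). CANX, CALR and P4HB followed in shNT, at 15403 ± 863, 14461 ± 1699 and 12507 ± 1452. There CANX and CALR differed by less than the SD of CALR but more than that of CANX. In shSRC1 CANX, CALR and P4HB stood at 16086 ± 1001, 15176 ± 724 and 15062 ± 1017. There all 3 differed by about the larger SD of each pair or less. AGR2 came after P4HB in shSRC1, at 14114 ± 1717, within the spread of P4HB, and after HSP90B1 in shNT, where HSP90B1 stood at 9013 ± 624. HSPA5 stood at 5661 ± 493 and 6886 ± 289. At the bottom were AGR3, ERO1LB and DERL3, at 32.4 ± 13.5, 22.9 ± 2.6 and 3.98 ± 2.56 in shNT.

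Of the 11 genes with an ERSE or ERSE-II, 2 rose (XBP1 and HSPA5) and none fell, and their median log2 fold change was 0.09, from -0.30 for HSP90B1 to 0.58 for XBP1. Of the 23 genes with a window but neither element, 4 rose and 1 fell, with a median of 0.04. KDELR3, with the UPRE shown above, rose, while HYOU1 and TXNDC5, the other genes with a UPRE, had 0.09 and -0.04. No test of the elements was made.

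Beyond the 39 genes, 117 other genes of the same pathways were listed by function, of which 114 passed the filter. Of these 15 rose and 8 fell, or 20.2% in all against 23.2% of all tested genes, with a median log2 fold change of 0.05. The count of rises was 8, 9 and 6 without shSRC1 replicates 1, 3 and 4, and that of falls was 5 without shSRC1 replicate 2, where 1453 of all tested genes fell in place of 2194. Among 17 other UPR regulators 2 rose and 2 fell. DDIT3, the CHOP factor downstream of PERK and ATF4, held 506, 571, 408 and 609 normalized reads in shNT. In shSRC1 it held 779, 770, 792 and 866, and it rose by 0.63 (SE 0.12, limma adjusted p = 0.00208). ATF4, TRIB3, PPP1R15A and PPP1R15B, of the same list, had log2 fold changes of 0.22, 0.29, -0.15 and -0.13. None of these 4 was called (limma adjusted p = 0.0875, 0.0578, 0.329 and 0.199). ATF6B, the paralogue of ATF6, held 4173, 3796, 4154 and 3630 in shNT and 3163, 2801, 2892 and 2808 in shSRC1, and fell by 0.43 (SE 0.08, limma adjusted p = 0.00189), the opposite direction to ATF6. The difference between ATF6 and ATF6B was not tested. NFYB, a subunit of the factor that binds the CCAAT part of the ERSE, fell by 0.41, and MBTPS1, the protease that cuts ATF6, rose by 0.23 (limma adjusted p = 0.00515 and 0.0469). The 20 neighbours of NFYB had a median of -0.29. NFYA and NFYC, subunits of the same factor, had 0.09 and 0.23 and were not called (limma adjusted p = 0.452 and 0.0614). The groups of NFYC did not overlap.

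Among the 15 other chaperone and glycan-folding genes, SIL1 and TOR1A rose by 0.30 and 0.35, and DNAJC10, UGGT2 and SEC63 fell by 0.43, 0.48 and 0.31. SIL1 is an exchange factor for BiP, and DNAJC10 and SEC63 are J-domain partners of BiP. Among the 14 other disulfide isomerases only TMX3 passed, rising by 0.34. Of 22 other degradation genes, 3 rose and 1 fell, among them DERL2 and UFD1L, which rose by 0.47 and 0.26, and UBXN4, which fell by 0.32. DERL2 thus rose where DERL1, of the same family, had 0.07. The difference between them was not tested.

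Of 25 other genes of translocation and N-glycosylation, 5 rose and SEC62 fell. SEC11C, a catalytic subunit of signal peptidase, rose by 0.58, and SSR2 and SPCS1 rose by 0.38 and 0.39. SEC62, a partner of the translocation channel, fell from 5052 ± 641 to 3335 ± 441 normalized reads (SD over 4 libraries). Its log2 fold change was -0.60 with SE 0.11 (limma adjusted p = 0.00151). Of 21 other genes of export and retrieval, KDELR1 and SEC13 rose by 0.31 and 0.27 and SEC24C fell by 0.28. The limma adjusted p-values of these named genes lay between 0.00151 and 0.0495. Over the alternatives, DERL2, ATF6B, DDIT3, NFYB, SEC62, SEC11C and SSR2 passed in all 20 settings. DNAJC10, UGGT2, KDELR1 and SPCS1 passed in 18 or 19, and TOR1A, TMX3, SEC63, UBXN4, SEC24C and SIL1 in 14 to 16. MBTPS1 passed in 11, and UFD1L and SEC13 in 9 each. Leaving out 1 library lost MBTPS1 and UFD1L in 7 of 8 cases and SEC13 in 6 of 8.

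**Figure D4:**
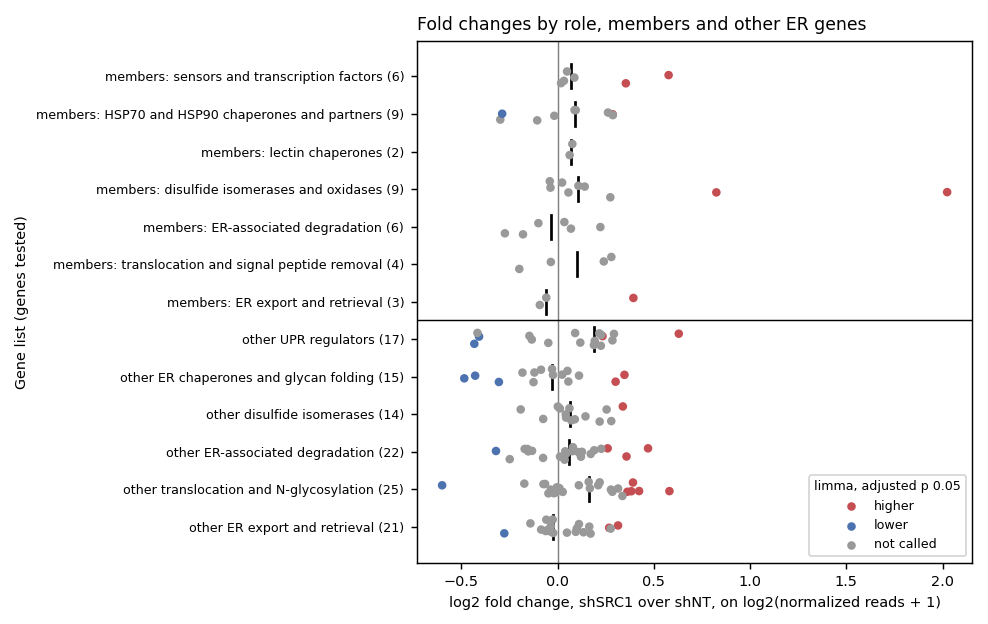
Log2 fold change in shSRC1 over shNT of each ER gene (points, jittered vertically), by role, for the 39 genes above the line and for the 114 other ER genes beneath it, with the median of each list as a black bar. Red and blue points passed an adjusted p of 0.05 in limma. Medians lie between -0.06 and 0.19, and AGR2 and AGR3 are the points past 0.8.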

How the data were processed

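Poly(A) RNA of 8 libraries was sequenced, 4 shNT and 4 shSRC1, with groups and replicate numbers from the sample labels. The deposited values are a signal proportional to reads, namely gene read counts that the authors divided by a size factor per library. The build is GRCh37 and the tools are DESeq, DESeq2, HTSeq 0.6.1 and TopHat2 2.0.12, per the submitters' processing notes. How strand was used, the counting options and the gene models were not given in the sources used here, so reads shared with overlapping genes on either strand cannot be told apart. All values (100.0% within 0.001) were whole multiples of a step per library, which gave back whole reads.

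Because the values are normalized, limma 3.58.1 (R 4.3.3; trend, robust) was fitted to log2(value + 1) of the 19559 genes with at least 10 in at least 4 libraries, and p-values were Benjamini-Hochberg adjusted over them, at a threshold of 0.05, without a block for replicate number. The script was tested on simulated data. The genes and lists were chosen with earlier results of these data known. Values in every library are given for called genes, HSPA5, XBP1 and the 3 sensors; HSP90B1, P4HB, ATF6B and DDIT3 were added after their values were seen. Of the other ER lists, up to 3 called genes per direction are named, and some genes of the lists are not reported here. Longest transcripts and gene order came from GENCODE 29 (GRCh38) by Ensembl identifier, and promoter windows from RefSeq (GRCh38.p14). Alternatives were TMM and upper-quartile scaling, no filter, pseudocounts of 5 and 0.5, a minimum of 50, a block for replicate number, a correction for transcript length and GC content, edgeR 4.0.16, DESeq2 1.42.0 and leaving out each library. Removing shNT replicate 3 and shSRC1 replicate 2 together was chosen after seeing the data.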

Additional observations from a re-analysis of the deposited data

Results flagged for a closer look

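In 82 groups of 4 libraries checked for a library far from the rest, 7 were marked, where chance marks about 1 in 20. The groups are the same 8 libraries read over different genes. They are not independent, so that rate is no measure for the count. All 7 marks fell in shNT replicate 3 or shSRC1 replicate 1. The median deviation of the 39 ER genes was -0.22 in shNT replicate 3, against -0.013 to 0.027 in the other shNT libraries. PDIA4 stood at 8914 normalized reads in shNT replicate 3 against 10968 to 11110 in the others, and SEC61A1 at 15392 against 18960 to 19303. In shSRC1 replicate 1, 4 genes stood above the other shSRC1 libraries. CALR held 30934 normalized reads there against 27989 to 28334, PDIA4 12062 against 10982 to 11146, P4HB 43149 against 37566 to 38299, and SYVN1 3315 against 2517 to 2637.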

How the results depend on the processing

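Of 20 alternatives, AGR2, AGR3, XBP1, ATF6 and KDELR3 passed in all, as did NCOA1, while HSPA5 passed in 16 and DNAJC3 in 11. The number of the 39 genes called higher (6) was 9 with upper-quartile scaling. It was 8 with DESeq2 and with the length and GC correction, and 5 to 9 with 1 library left out. The number of the 39 genes called lower (1) was 2 with a replicate block and with DESeq2, 0 with shNT replicate 3 and shSRC1 replicate 2 both removed, and 0 to 2 with 1 library left out. With the block, 11 of the 39 rose, the additions being HERPUD1, MANF, P4HB, SEC61A1 and SEC61B, and HSP90B1 was the added fall, while 32.7% of all tested genes were called. The labels tie replicate numbers to no shared culture or day. Correlations of same-numbered libraries were 0.24, -0.010, 0.13 and 0.14: numbers 1, 3 and 4 correlated best with themselves and number 2 did not, so the block was kept as an alternative. Other ER genes called higher (15) numbered 24 with the block, with or without a length and GC correction, and 6 to 18 with 1 library left out. Those called lower (8) numbered 5 with both libraries removed and 5 to 8 with 1 left out. All tested genes called lower numbered 1453 to 2291 with 1 left out. Another 12 genes, none called, changed sign in at least 1 alternative. The cause was not tested. With the length and GC correction, with or without the block, log2 fold changes were -0.0032 for ERN1, -0.021 for CREB3L2, 0.14 for DNAJB11, -0.0037 for CALR, 0.14 for ERO1LB and 0.16 for SPCS3. With both libraries removed they were -0.0074 for CRELD2, -0.0024 for CALR and -0.023 for PDIA6. With 1 library left out they ran from -0.043 to 0.066 for CREB3L2, -0.071 to 0.011 for DNAJB11, -0.0094 to 0.14 for CRELD2, -0.011 to 0.12 for CALR, -0.026 to 0.10 for PDIA6, -0.14 to 0.024 for TXNDC5, -0.0047 to 0.063 for ERO1L, -0.12 to 0.067 for ERO1LB, -0.018 to 0.083 for SEL1L, -0.61 to 0.12 for DERL3 and -0.073 to 0.0056 for SPCS3. Low reads limit DERL3 and AGR3.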
